A study of Mus musculus with 4 samples.

Results

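The integrin subunits Itga1, Itga2, Itga3, Itga5, Itga6, Itgav, Itga11, Itgb1, Itgb3 and Itgb5 form receptors for collagen, fibronectin, vitronectin and laminin, and these 10 genes were taken by their symbols from the 21862 genes listed once in each of 4 RNA-seq libraries. The question was how their mRNA levels varied with the stiffness of a collagen-coated matrix and with knockdown of Srf, the serum response factor. All 4 libraries came from N31 cells, a single mouse neural progenitor cell (NPC) line that was made by differentiating iPSCs and that carries transgenes for the reprogramming factors Oct4, Klf4, c-Myc and Sox2 under a Dox-dependent promoter, an rtTA transgene under a CAG promoter and a blasticidin resistance cassette in Oct4. The control groups were these cells on matrices of 0.5 kPa and of 12 kPa, and the shSrf groups were the same cells with the short hairpin shSrf#1 against Srf, from a retroviral vector with an H1 promoter, on matrices of 0.5 kPa and of 12 kPa. In all groups the dishes were coated with type I collagen and the medium lacked EGF and bFGF. The study's methods give puromycin selection of infected cells for analyses other than reprogramming efficiency. Whether control cells carried an empty vector or were given puromycin is not stated in the sources used here. Knockdown of Srf, infection, selection and other effects of the single hairpin thus cannot be told apart. Each group was 1 library, so the differences below cannot be set against a spread between replicates, and none was given a p-value.

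Integrins are heterodimers of an alpha and a beta chain that span the plasma membrane and link the extracellular matrix to the actin cytoskeleton. The alpha chain largely sets the ligand. The alpha 1, alpha 2 and alpha 11 chains bind collagen through an inserted domain, alpha 5 binds fibronectin, alpha V binds vitronectin and fibronectin, and alpha 3 and alpha 6 bind laminin. Neural progenitors in the brain use laminin receptors of the beta 1 class to hold on to basement membrane. Srf with its cofactors of the Mkl family drives many genes of the actin cytoskeleton and of cell adhesion, and Mkl1 is released to the nucleus when monomeric actin is scarce.

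Levels are given as FPKM, fragments scaled to transcript length and library depth, which can be compared between genes because of the scaling to length. From the whole-read steps of low values, the libraries held an estimated 2.41e+07 to 6.24e+07 reads, the fewest for control at 12 kPa and the most for shSrf at 12 kPa. The targeted gene, Srf, was at an FPKM of 34.4 and 35.6 in control and of 16.2 and 17.4 in Srf-knockdown NPCs, at 0.5 and 12 kPa. Of 12 neural progenitor markers, 6 to 7 were above an FPKM of 2 in each library, while Sox1, Hes5 and Olig2 were listed at 0 in all 4. These markers differed between the populations in both directions. Of the 5 above the minimum in all libraries, 2 were lower and 3 higher after knockdown at each stiffness, by over 1.1-fold. Of all genes above the minimum, 35.7% and 35.9% were lower and 37.4% and 37.6% higher at 0.5 and 12 kPa. These shares also stand beside the mesenchymal counts below. Nes was at 51.6 and 36.1 in control against 16.4 and 15.5 in shSrf libraries, Slc1a3 at 27.7 and 36.7 against 9.99 and 13.2, and Sox2 at 4.29 and 5.49 against 19.1 and 20.4. The cells carry a Sox2 transgene, and these values do not separate its reads from those of the endogenous gene. The summed FPKM of the 12 was 1793 and 1571 against 2439 and 2458, most of it from Vim. Of 10 mesenchymal markers, 9 to 10 were above 2. Their summed FPKM was 523 and 584 in control and 395 and 398 in shSrf libraries, a gap that follows Postn (188 and 259 against 30.2 and 36.8), since 2 of the 8 above the minimum in all libraries were lower after knockdown and 4 were higher at 0.5 kPa (3 at 12 kPa). The part of these markers in the differences between the populations was not tested. Endothelial and blood cell markers were low, with at most 1 of 6 and 1 of 7 above 2 (Emcn and Cd68). In such bulk RNA, fewer cells of a type and less RNA per cell cannot be told apart.

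The 10 subunits differed widely in level. Itgb1, the beta chain shared by most of the receptors named above, was highest in control NPCs, with an FPKM of 249.98 on the 0.5 kPa and 251 on the 12 kPa matrix. Itgb5, a partner of alpha V in vitronectin binding, came next with 205 in both control libraries. Of the alpha chains, Itgav was highest with 80.5 and 90.9, followed by Itga5 with 77.9 and 66.2, Itga3 with 51.4 and 41.6 and Itga6 with 47.3 and 35.3. The collagen-binding alpha chains were low in cells that grew on collagen. Itga1 had an FPKM of 10.2 and 12.1, Itga2 of 1.92 and 1.99, and Itga11, which binds fibrillar collagens in fibroblasts, of 0.122 and 0.0869. Itgb3, the other main partner of alpha V, lay between Itga1 and Itga2 with 5.95 and 6.22. This order was the same in both control libraries, and in the Srf-knockdown libraries Itgb5 and Itgb1 changed places while the other ranks stayed. The closest neighbours were Itgav and Itga5 in control at 0.5 kPa, which differed 1.03-fold, and Itga3 and Itga6 in shSrf at 0.5 kPa, which differed 1.06-fold, and with 1 library a condition such small gaps cannot be set against a spread.

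**Figure D1:**
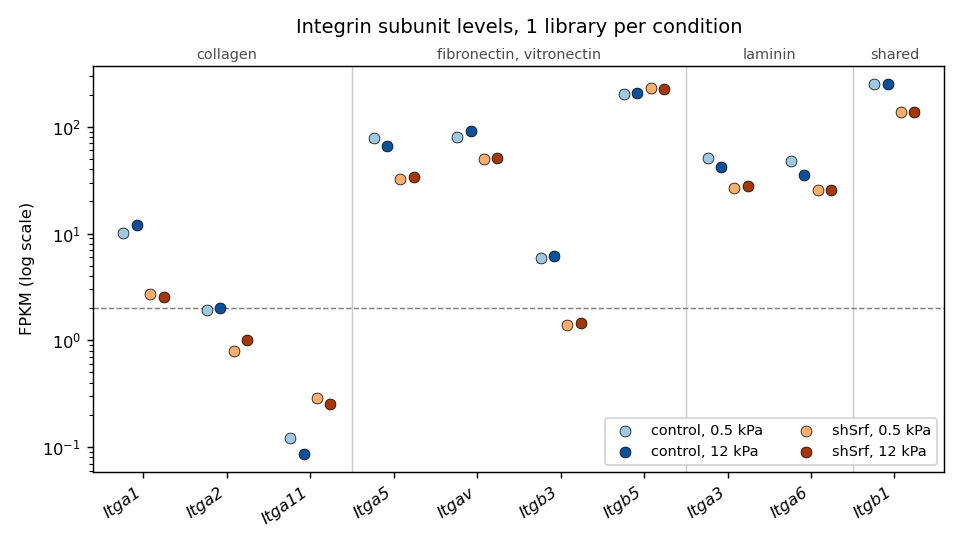
FPKM of the 10 integrin subunits on a log axis, grouped by ligand, with 1 point per library (light and dark blue for control at 0.5 and 12 kPa, light and dark orange for shSrf at 0.5 and 12 kPa). The dashed line marks the minimum FPKM of 2. Both orange points lie below both blue points for 8 genes, and above them for Itga11 and Itgb5.

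Since Srf acts through a DNA element, the CArG box, the promoters of the subunits were read from RefSeq on GRCm38 (mm10), from 250 bases before to 50 bases after the start. The table held 9 promoters for 8 of the 10 genes, all except Itga6 and Itgb3. None of the 9 held an exact CArG box on either strand, against 1.63% of all 32851 promoters. With 1 base allowed to differ, 3 of 9 held a match, those of Itga1, Itga5 and Itgb1, against 21.1% of all promoters. No such match lay in the promoters of Itga2, Itga3 and Itgav, which were lower after knockdown, or of Itga11 and Itgb5, which were higher. The GC box GGGCGG, on either strand, was in 7 of 9 (35.7% of all). The AP-1-like pattern TGANTCA, with any base in the middle, was in 1 of 9 (7.81%), as TGAATCA in a promoter of Itga3. The M-CAT element CATTCC, on either strand, was in 1 of 9 (14.7%, in Itgb1). None of the M-CAT, AP-1 and GC box matches overlapped a CArG-like match. These matches are letters in a window and not bound sites, and a search of this window says nothing of enhancers further away. The 4 promoters below are shown because they belong to the subunit with the widest range among genes above the minimum (Itga1), to the main fibronectin receptor chain (Itga5), to the shared beta chain (Itgb1) and to the included subunit that was higher after knockdown (Itgb5). Capitals mark the CArG-like match, and Itgb5 has none. They lie at chr13:115101915-115102214 (minus strand), chr15:103366742-103367041 (minus strand), chr8:128685404-128685703 (plus strand) and chr16:33829415-33829714 (plus strand), in that order, and are written 5′ to 3′ on the strand of the gene.
Itga1: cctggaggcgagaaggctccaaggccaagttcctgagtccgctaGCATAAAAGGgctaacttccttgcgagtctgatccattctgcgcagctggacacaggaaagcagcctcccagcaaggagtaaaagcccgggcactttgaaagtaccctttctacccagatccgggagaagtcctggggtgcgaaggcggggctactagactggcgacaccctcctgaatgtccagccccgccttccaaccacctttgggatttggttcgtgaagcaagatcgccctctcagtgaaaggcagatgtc
Itga5: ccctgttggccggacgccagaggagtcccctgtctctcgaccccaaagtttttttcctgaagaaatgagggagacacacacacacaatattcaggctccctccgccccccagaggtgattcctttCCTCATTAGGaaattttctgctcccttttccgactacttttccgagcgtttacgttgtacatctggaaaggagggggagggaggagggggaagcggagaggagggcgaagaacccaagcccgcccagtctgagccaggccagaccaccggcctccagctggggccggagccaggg
Itgb1: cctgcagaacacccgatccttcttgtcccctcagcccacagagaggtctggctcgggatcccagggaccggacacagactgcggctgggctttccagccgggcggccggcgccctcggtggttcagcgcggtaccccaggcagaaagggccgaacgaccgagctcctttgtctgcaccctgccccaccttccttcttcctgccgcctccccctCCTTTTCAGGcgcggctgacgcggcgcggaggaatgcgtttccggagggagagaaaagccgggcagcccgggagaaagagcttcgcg
Itgb5: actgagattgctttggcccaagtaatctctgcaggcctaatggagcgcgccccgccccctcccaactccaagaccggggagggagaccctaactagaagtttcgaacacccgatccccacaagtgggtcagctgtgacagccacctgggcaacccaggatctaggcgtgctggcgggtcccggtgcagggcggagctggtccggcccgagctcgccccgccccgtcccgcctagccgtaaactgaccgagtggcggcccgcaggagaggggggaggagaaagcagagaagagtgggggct
Counted from the start, the match lay at bases -206 to -197 in Itga1, -125 to -116 in Itga5 and -37 to -28 in Itgb1.

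Knockdown of Srf went with lower levels of most of these subunits. In Srf-knockdown NPCs, 8 of the 10 genes were below both control libraries at both stiffnesses, by 1.39-fold to 4.72-fold, and Itgb5 and Itga11 were above them. The minimum and the threshold for counts follow the study's methods. Counts include the 10489 genes whose FPKM exceeded 2 in each of the 4 libraries, and a ratio beyond 1.1-fold is called lower or higher. By this rule 7 subunits were included, and a gene that falls under 2 in any library is left out. Of these 7, 6 were lower and 1 was higher after knockdown at each stiffness. Of all included genes, 35.7% were lower and 37.4% higher at 0.5 kPa, and 35.9% were lower and 37.6% higher at 12 kPa. For 6 of 7, both Srf-knockdown libraries lay below both control libraries, against 37.6% of included genes. The median log2 ratio to control over the 7 was -0.89 at 0.5 kPa and -0.84 at 12 kPa, while that over all included genes was 0.01 at both. By more than 1.5-fold, 6 of 7 were lower at 0.5 kPa and 4 of 7 at 12 kPa, where 9.28% and 8.88% of included genes were.

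**Figure D2:**
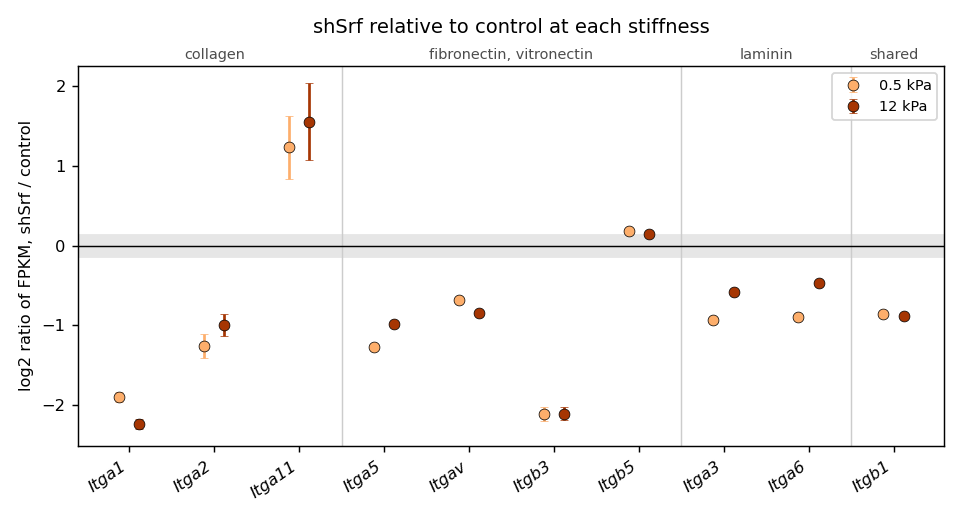
Log2 ratio of FPKM in shSrf to control for each subunit at 0.5 kPa (light) and 12 kPa (dark), with bars for 1 standard error from counting reads only and a grey band for 1.1-fold. Only Itga11 and Itgb5 lie above 0, with Itgb5 at 0.18 and 0.15.

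Among the collagen receptors, Itga1 (chromosome 13 of mm10, 114958079 to 115101964) was lower by the largest factor of the included subunits. Its FPKM was 10.2 and 12.1 in control and 2.73 and 2.57 in Srf-knockdown NPCs, at 0.5 and 12 kPa. The knockdown libraries held 26.8% and 21.2% of the control level. The log2 ratio to control was -1.90 at 0.5 kPa and -2.24 at 12 kPa, with counting errors of 0.064 and 0.059. Of all included genes, 0.429% had a lower ratio at 0.5 kPa and 0.219% at 12 kPa. Pelo, which acts in the rescue of stalled ribosomes, lies inside Itga1 on mm10. Its own FPKM was 24.4, 23.6, 18.2 and 18.8 in the order above, and how reads shared by the 2 genes were divided is not given in the sources used here.

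Itga2 had an FPKM of 1.92 and 1.99 in control and 0.802 and 0.999 in Srf-knockdown NPCs, always under the minimum of 2. It was lower in both knockdown libraries, with log2 ratios of -1.26 at 0.5 kPa and -0.995 at 12 kPa, from an estimated 145 to 250 reads a library. Itga11 had 0.122 and 0.0869 in control and 0.289 and 0.256 in Srf-knockdown NPCs. Both knockdown values were higher, with log2 ratios of 1.24 and 1.56, but they rest on an estimated 10 to 76 reads and have counting errors of 0.39 and 0.49. Itga11 was thus barely detected at the depth of these libraries. The remaining collagen-binding alpha chain, Itga10, had an FPKM of 4.75 and 5.50 in control and 2.85 and 2.67 in Srf-knockdown NPCs, log2 ratios of -0.74 and -1.04. Among the collagen-binding integrin chains above the minimum, Itga1 and Itga10, both were thus lower after knockdown. The summed FPKM of Itga1, Itga2 and Itga11 was 12.2 and 14.2 in control and 3.82 in both Srf-knockdown libraries.

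Among subunits for fibronectin and vitronectin, Itga5 (chromosome 15, 103344286 to 103366791) was measured at 77.9 and 66.2 in control and 32.2 and 33.5 in Srf-knockdown NPCs. The knockdown libraries held 41.3% and 50.6% of the control level, with log2 ratios of -1.28 at 0.5 kPa and -0.98 at 12 kPa (counting error 0.024 and 0.023). Itgav (chromosome 2) had 80.5 and 90.9 in control and 50.1 and 50.8 in Srf-knockdown NPCs, log2 ratios of -0.69 and -0.84. Its ratios were nearer 0 than those of Itga5. Itgb3 (chromosome 11) had 5.95 and 6.22 in control and 1.38 and 1.44 in Srf-knockdown NPCs. It was 4.32-fold lower at each stiffness, log2 -2.11 in both, from 344 or more estimated reads, and was left out of the counts because it fell under the minimum.

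Itgb5 (chromosome 16, 33829665 to 33949338) behaved otherwise. Its FPKM was 205 in both control libraries and 233 and 228 in Srf-knockdown NPCs. It was thus 1.14-fold and 1.11-fold higher, just past the threshold at 12 kPa. The log2 ratios of 0.18 and 0.15 lay inside the range from -0.79 to 0.77 that holds the 5th to 95th percentile of all included genes at 0.5 kPa. Centred within bins of transcript GC content, they were 0 at 0.5 kPa and -0.15 at 12 kPa, so the direction of this difference depended on the scaling. As deposited, Itgb5 was 82.0% and 81.7% of the FPKM of Itgb1 in control and 168% and 167% in Srf-knockdown NPCs. With the knockdown ratios centred by GC content, the latter were 134% and 119%, so Itgb5 was above Itgb1 under both scalings. Itgav was 39.3% and 44.3% of the FPKM of Itgb5 in control and 21.5% and 22.3% in Srf-knockdown NPCs.

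Of the laminin receptor chains, Itga3 (chromosome 11) had an FPKM of 51.4 and 41.6 in control and 27.0 and 27.9 in Srf-knockdown NPCs. Its log2 ratio was -0.93 at 0.5 kPa and -0.58 at 12 kPa. Itga6 (chromosome 2) had 47.3 and 35.3 in control and 25.5 in both Srf-knockdown libraries, log2 ratios of -0.89 and -0.47. For both chains the ratio was nearer 0 at 12 kPa than at 0.5 kPa, and this came with lower control values at 12 kPa, while the knockdown values were alike at both stiffnesses. Itgb1 (chromosome 8) had 249.98 and 251 in control and 139 and 136 in Srf-knockdown NPCs. The log2 ratios of -0.85 and -0.88 had a counting error of 0.013 in both cases, the smallest of the 10, and were the most alike between stiffnesses among the 6 included subunits that were lower. The alpha chains among the 10 genes that pair with beta 1, Itgav left aside, summed to 75.5% and 62.7% of the FPKM of Itgb1 in control and to 63.8% and 66.6% in Srf-knockdown NPCs.

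**Figure D3:**
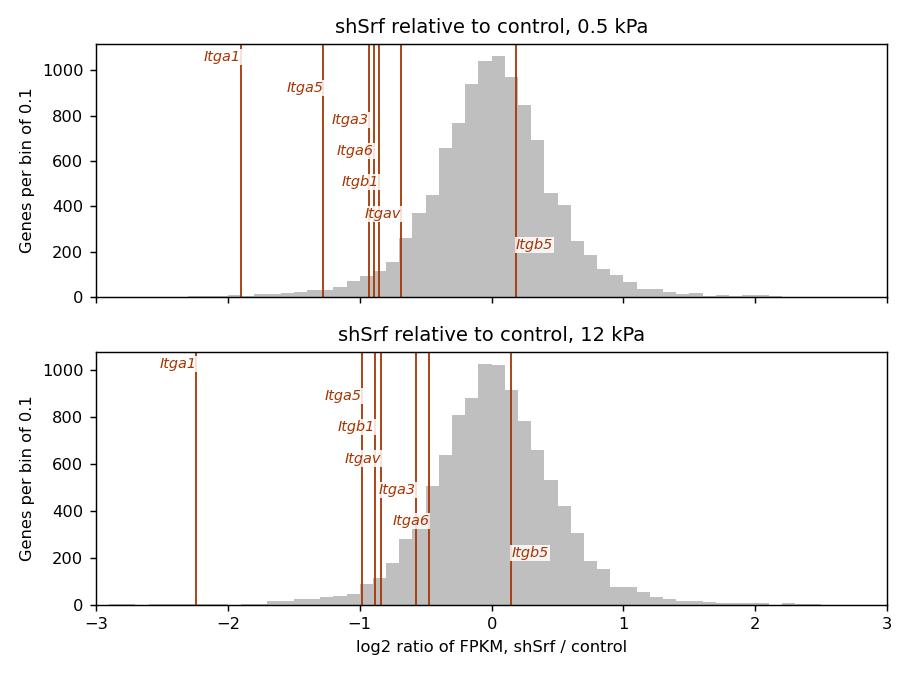
Numbers of the 10489 included genes by log2 ratio of FPKM in shSrf to control at 0.5 kPa (top) and 12 kPa (bottom), in bins of 0.1. Lines mark the 7 included subunits, of which 6 lie left of 0, from -0.69 to -1.90 at 0.5 kPa and from -0.47 to -2.24 at 12 kPa.

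Differences with stiffness were smaller, and among included subunits only control libraries had any past 1.1-fold. In control NPCs, 3 of the 7 included subunits were lower on the 12 kPa than on the 0.5 kPa matrix and 2 were higher, where 16.9% of included genes were lower and 17.9% higher. Itga6 was lower 1.34-fold (log2 ratio -0.42, counting error 0.031), Itga3 1.23-fold (-0.30, 0.027) and Itga5 1.18-fold (-0.23, 0.023). Both laminin receptor chains were thus among the 3, and for comparison the 5th percentile of all included genes was -0.30. Itga1 was higher on the stiffer matrix, 1.19-fold (log2 ratio 0.25, counting error 0.049), and Itgav 1.13-fold (0.17, 0.016). Itgb1 and Itgb5 were alike at both stiffnesses, with log2 ratios of 0.01 and 0.00106. Of the subunits under the minimum, Itga2 and Itgb3 had log2 ratios of 0.06 in control NPCs, and Itga11 had -0.49 with a counting error of 0.57. The median over the 7 was 0.00106 and that over all included genes was 0.00305.

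In Srf-knockdown NPCs, 0 of 7 were lower and 0 higher on the 12 kPa matrix, where 13.0% of included genes were lower and 17.6% higher. All 7 log2 ratios lay between -0.09 for Itga1 and 0.06 for Itga5. Itga6 had an FPKM of 25.5 at both stiffnesses. Under the minimum, Itgb3 had a log2 ratio of 0.06, Itga2 of 0.32 with a counting error of 0.15, and Itga11 of -0.17 with a counting error of 0.25. The ratio in Srf-knockdown minus that in control NPCs was 0.42 for Itga6, 0.35 for Itga3, 0.29 for Itga5, -0.34 for Itga1 and -0.15 for Itgav. Centred by GC content, it was 0.43 for Itga6, 0.23 for Itga3, 0.18 for Itga5, -0.30 for Itga1 and -0.09 for Itgav. Across genes, the stiffness ratio had a Spearman correlation with transcript GC content of -0.127 in control cells and 0.342 after knockdown. These differences between the populations were not tested, each resting on single libraries. Of the 10 subunits, 0 were past 1.1-fold in opposite directions, where 6.01% of all included genes were.

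**Figure D4:**
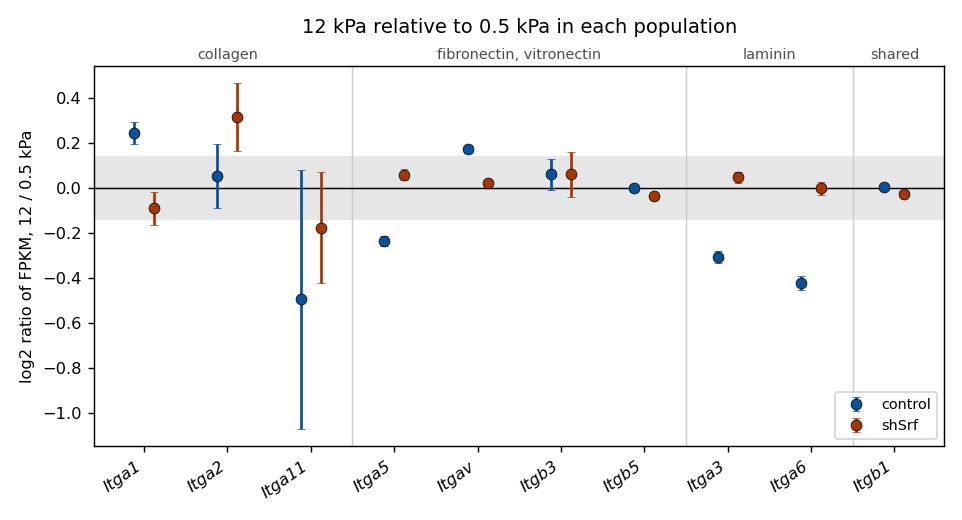
Log2 ratio of FPKM at 12 kPa to 0.5 kPa for each subunit in control (blue) and shSrf libraries (orange), with bars for 1 standard error from counting reads only and a grey band for 1.1-fold. Blue points leave the band for Itga1, Itga11, Itga5, Itgav, Itga3 and Itga6, and orange points for Itga2 and Itga11, both with wide bars.

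Set beside each other by ligand, collagen receptors were the smallest part of the alpha chains. The FPKM of all 17 alpha subunit genes listed once summed to 330 and 313 in control and to 196 and 198 in Srf-knockdown NPCs. Itga1, Itga2 and Itga11 together made up 3.72% and 4.53% of this sum in control and 1.95% and 1.93% in Srf-knockdown NPCs. Itga5 and Itgav made up 48.1% and 50.1% in control and 41.8% and 42.7% in Srf-knockdown NPCs. With Itga8 added, which also binds fibronectin, the share was 58.6% and 62.6% in control and 58.3% and 56.9% in Srf-knockdown NPCs, so at 0.5 kPa the gap between the populations depended on where Itga8 was placed. Adding Itga8 was chosen after seeing the data. Itga3 and Itga6 made up 30.0% and 24.5% in control and 26.7% and 27.0% in Srf-knockdown NPCs. The other 10 alpha chains were a larger share after knockdown, 29.5% and 28.4% against 18.3% and 20.8%, while their summed FPKM was 60.2 and 65.2 in control and 58.0 and 56.1 in Srf-knockdown NPCs. With Itga10 counted among the collagen receptors, a choice made after seeing the data, their share was 5.16% and 6.28% in control and 3.39% and 3.29% in Srf-knockdown NPCs.

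**Figure D5:**
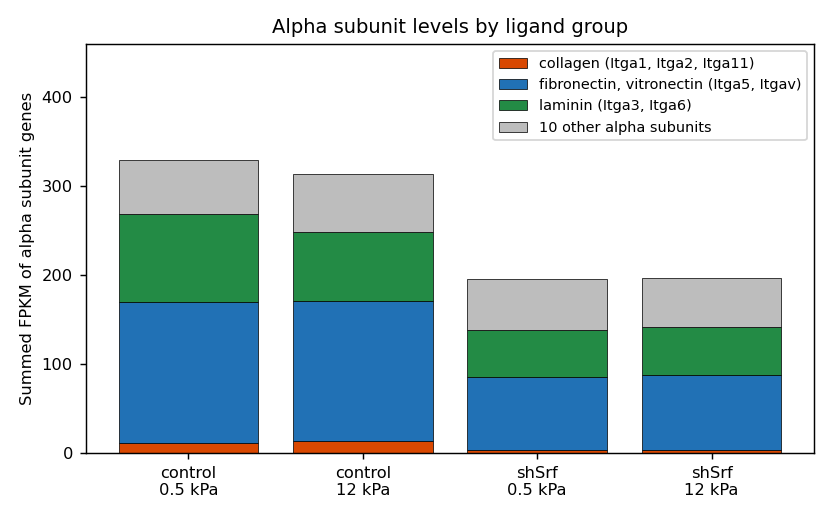
Summed FPKM of alpha subunit genes in each library, stacked by ligand group (collagen at the bottom, then fibronectin and vitronectin, laminin, and the other 10 alpha chains). The bars reach 330 and 313 in control and 196 and 198 in shSrf libraries, and the grey part for the other chains is between 56.1 and 65.2 in all 4.

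Of the integrin subunits that are not among the 10, 15 were listed once and 7 were above the minimum in all libraries, and 4 of 7 were lower and 1 higher after knockdown at each stiffness, beside 35.7% and 35.9% of all included genes lower and 37.4% and 37.6% higher at 0.5 and 12 kPa. Itgb4, which pairs with alpha 6 in hemidesmosomes, had an FPKM of 8.36 and 6.29 in control and 3.58 and 3.81 in Srf-knockdown NPCs. Itgb7, which pairs with alpha 4 in lymphocytes, had 11.8 and 9.43 in control and 5.37 and 5.96 in Srf-knockdown NPCs. Both were thus lower in both knockdown libraries. Itga8, a receptor chain for nephronectin and fibronectin, had 34.8 and 39.1 in control and 32.3 and 28.0 in Srf-knockdown NPCs, so that it was the highest of the other alpha chains in every library. Itga7, a laminin receptor chain of muscle, had 7.20 and 6.35 against 5.55 and 6.34, and Itgb8, an alpha V partner, stayed between 2.65 and 2.81 in all 4 libraries. Itga2b, the platelet fibrinogen receptor chain, was the one that was higher, with 11.9 and 11.7 in control and 15.8 and 17.3 in Srf-knockdown NPCs.

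Of 5 collagen receptors outside the integrin family, 3 were above the minimum. After knockdown, 1 of 3 was lower (Ddr2) and 1 higher (Ddr1) at 0.5 kPa, with 0 lower and 1 higher (Ddr1) at 12 kPa. Of all included genes, 35.7% and 35.9% were lower and 37.4% and 37.6% higher at 0.5 and 12 kPa. The receptor kinase Ddr1 had an FPKM of 46.8 and 48.0 in control and 66.1 and 77.4 in Srf-knockdown NPCs (log2 ratios 0.50 and 0.69). The receptor kinase Ddr2 had 56.6 and 54.2 against 51.1 and 56.0, and the endocytic receptor Mrc2 had 167 and 182 against 160.3 and 176. The median log2 ratio of these 3 to control was -0.06 at 0.5 kPa and 0.05 at 12 kPa. The summed FPKM of the 5 genes was 271 and 284 in control and 277 and 309 in Srf-knockdown NPCs.

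Inside the cell, a set of proteins activates integrins or joins them to actin. Of 13 above the minimum among 16 activators and adaptors, 11 were lower and 0 higher at 0.5 kPa, and 9 were lower and 1 higher at 12 kPa, with median log2 ratios of -0.71 and -0.36. For this and the next 2 groups, 35.7% and 35.9% of all included genes were lower and 37.4% and 37.6% higher, and the median over all was 0.01. Fermt2, the kindlin that binds beta tails, had an FPKM of 90.9 and 84.95 in control and 32.5 and 32.4 in Srf-knockdown NPCs, and Vcl, or vinculin, had 143 and 127 against 62.2 and 66.3. Ptk2, the focal adhesion kinase, had 46.6 and 42.9 against 24.4 and 23.3. Of 6 genes for proteins that hold integrins inactive or compete at their tails, 3 were lower and 2 higher at 0.5 kPa, and 4 were lower and 1 higher at 12 kPa. Among them Flna, a filamin that competes for beta tails, had log2 ratios of -1.12 at 0.5 kPa and -0.95 at 12 kPa, and Dok1, an adaptor that binds beta tails, had -0.68 and -0.87. Tetraspanins and lateral partners were divided, with 2 of 6 lower and 3 of 6 higher at each stiffness. Among them Cd82 had an FPKM of 19.9 and 17.9 in control and 38.8 and 39.4 in Srf-knockdown NPCs, and Cd81 and Cd63 were higher as well (log2 ratios from 0.39 to 0.59).

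The cells also made ligands themselves. The share of all included genes given above (35.7% and 35.9% lower, 37.4% and 37.6% higher) stands beside each count after knockdown. Of 9 collagen chains, all above the minimum, 7 were lower and 1 higher after knockdown at 0.5 kPa, and 6 were lower and 2 higher at 12 kPa, with median log2 ratios of -0.75 and -0.35. Col4a1, a chain of basement membrane collagen, had an FPKM of 580.0 and 481 in control and 149.6 and 157 in Srf-knockdown NPCs. Its partner chain Col4a2 had log2 ratios of -1.94 and -1.41, and Col5a2, of fibrillar type V collagen, -2.98 and -2.34. Of 7 RGD ligands and related matrix proteins above the minimum, 4 were lower and 3 higher at 0.5 kPa, and 3 were lower and 3 higher at 12 kPa. Spp1, or osteopontin, a ligand of alpha V receptors, had 1442 and 1312 in control and 2806 and 2384 in Srf-knockdown NPCs, while Tnc, or tenascin C, had 92.4 and 74.7 against 24.04 and 26.4 and Thbs1, or thrombospondin 1, had 43.8 and 61.4 against 21.8 and 30.6. Of 7 laminin chains above the minimum, 3 were lower and 3 higher at each stiffness. Lama4 had 55.3 and 62.2 in control and 16.6 and 16.9 in Srf-knockdown NPCs, whereas Lama5 had 33.5 and 24.2 against 76.97 and 79.45. With stiffness in control NPCs, 4 of the 7 laminin chains were lower and 2 higher, where 16.9% of included genes were lower and 17.9% higher. Lama5 was among the lower ones, with a log2 ratio of -0.47, and Lama4 among the higher ones, with 0.17.

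By the 4 log2 FPKM values, each centred on its own mean, the genes nearest to Itga1 among the included ones were 4930447C04Rik, Rhoj and Mgp, at Euclidean distances of 0.248, 0.249 and 0.272 over 4 libraries. Rhoj, a small GTPase, had an FPKM of 10.04 and 10.7 in control and 2.13 and 2.40 in Srf-knockdown NPCs. Mgp, the matrix Gla protein that limits calcification, had 36.9 and 52.7 against 11.5 and 12.0. The RIKEN cDNA gene had 37.2 and 37.1 against 8.49 and 7.43. With 4 libraries, likeness of this kind follows mainly the difference between the populations.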

How the data were processed

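RNA of N31 NPCs was sequenced in 4 libraries, 1 for each combination of control or shSrf with 0.5 or 12 kPa, from TruSeq Stranded mRNA libraries. Per the labels and the study's methods, the authors trimmed single-end reads with cutadapt 1.9.1, mapped them to mm10 with TopHat2 2.1.0 (GENCODE annotation) and Bowtie2 2.2.8 and kept reads with a mapping quality of at least 20. The deposited FPKM values were calculated per gene with Cufflinks 2.2.1, and were used as deposited. Each library listed 21997 rows, and 63 symbols listed more than once (135 rows) were left out.

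Ratios were log2 without a pseudocount. Genes were counted where FPKM exceeded 2 in every library, at a threshold of 1.1-fold. No test was run, since each condition had 1 library, and an additive fit of knockdown and stiffness over the 4 libraries, which would leave 1 residual degree of freedom, was not made. Read depth was estimated from genes with FPKM under 0.1 (922 of 1101 fell on whole-read steps, with a tolerance of 2%). Estimated reads took the longest protein-coding transcript of GENCODE version M1 less 200 nucleotides, and counting errors cover reads only, not culture or library preparation. Depth and calls were checked on data simulated from these same depths and transcript lengths, with counting noise only. Levels were halved or doubled in well-expressed genes, so calls near 1.1-fold or near the minimum were not tested. Gene positions and promoters are those of RefSeq on GRCm38.

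The 10 genes, the gene lists and the settings were chosen with earlier results of these data known. Genes named are the 10 subunits, other integrin subunits above an FPKM of 2 in any library, Srf, in each list the 3 with the largest mean log2 ratio of shSrf to control in size, and the 3 nearest to Itga1. In the marker lists only genes that bear on the sample check are given. Some genes that the rule names are not reported here. Alternatives were minimum FPKM of 1 or 5, none with a pseudocount of 1, a pseudocount of 1, scaling to the 75th percentile, median centring, centring within 50 bins of transcript GC content and thresholds of 1.2, 1.5 and 2-fold. The tools were matplotlib 3.10.9, scipy 1.17.1, pandas 2.3.3, numpy 2.4.6 and Python 3.11.15.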

Additional observations from a re-analysis of the deposited data

Results flagged for a closer look

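Of the 49 genes named by rule, 4 went past 1.1-fold with stiffness in one direction in control NPCs and in the other direction after Srf knockdown. This is 8.16% of them, and 6.01% of all 10489 included genes (630) met the same rule. Of the 49, 46 were above the minimum in all libraries, so these shares have unlike bases. With single libraries, these differences were not tested. For Itga8, the nephronectin receptor chain, the stiffness ratio (log2, 12 over 0.5 kPa) was 0.17 in control and -0.21 in shSrf libraries, so the shSrf value minus the control value was -0.37. For Itga7 the ratios were -0.18 and 0.19, and the difference was 0.37. For Itgb7 they were -0.32 and 0.15, and the difference was 0.48. For Col4a2, the basement membrane collagen chain, they were -0.28 and 0.24, and the difference was 0.53. With ratios centred by GC content, the shSrf values of Itga7 (0.12), Itgb7 (0.068) and Col4a2 (0.14) were within 1.1-fold, while Itga8 kept -0.16.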

How the results depend on the processing

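The labels carry no replicate numbers, and no fit pairing the populations by stiffness was made. After centring within bins of GC content, 0 subunits were higher after knockdown at 0.5 kPa and 0 at 12 kPa. Then 6 of 7 were lower at 0.5 kPa and 7 of 7 at 12 kPa. Shares of all genes called under the settings of this paragraph are not given here. Its counts thus have no background beside them. The median ratio at 12 kPa was -0.69, and Itgb5 turned to -0.15 at 12 kPa. At this stiffness Itga5 moved to -1.28 and Itga3 to -0.85, further from 0. Itga1 moved to -2.05, Itgav to -0.63, Itgb1 to -0.69 and Itga6 to -0.37, nearer 0. Across genes, the knockdown ratio had a Spearman correlation with transcript GC content of 0.266 at 0.5 kPa and 0.413 at 12 kPa. With a minimum of 5, which leaves out Itga1, 1 subunit was higher with stiffness in control, with a median of -0.12, and the knockdown median at 12 kPa was -0.71. With no minimum and a pseudocount of 1, 1 was higher with stiffness in shSrf, 2 were higher after knockdown at each stiffness, and the knockdown median at 12 kPa was -0.70. The pseudocount moved the knockdown ratios of low genes nearer 0. At 0.5 and 12 kPa they were -1.59 and -1.88 for Itga1 and -1.55 and -1.57 for Itgb3. For Itga2 they were -0.69 and -0.58, and for Itga11 0.20 and 0.21. With 1.2-fold, 1.5-fold and 2-fold, 0 were higher in any comparison. With 1.5-fold and 2-fold, 0 were lower with stiffness in control, and with 2-fold 2 were lower after knockdown at 0.5 kPa and 1 at 12 kPa. With the 7 alpha chains among the 10 genes as the whole, the collagen share was 4.55% and 5.72% in control and 2.76% and 2.70% in shSrf libraries, the fibronectin and vitronectin share 58.8%, 63.3%, 59.4% and 59.6%, and the laminin share 36.6%, 31.0%, 37.9% and 37.7%. Counting Itga10 as a collagen receptor gave 5.16%, 6.28%, 3.39% and 3.29%, and Itga8 as a fibronectin receptor gave 58.6%, 62.6%, 58.3% and 56.9%. Both were chosen after seeing the data, as was GC centring of Itgb5 over Itgb1 (134% and 119%). The cause of these moves was not tested. Depth limits Itga11 most, with 10 estimated reads in control at 12 kPa.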
